A study of Mus musculus with 13 samples.

Results

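The c-myc break joining libraries were the 3 libraries of B cells (numbered 14, 36 and 37) and the 4 of fibroblasts (numbered 1 to 4) whose titles name Myc. They make up 7 of the 13 libraries of the series and 9577 of its 16455 junctions. Each junction is a read in which a fixed DNA break at c-myc on mouse chromosome 15, the bait, is joined to another piece of the genome, the prey. The B cells were splenic, carried the genotype c-myc25-2xI and were activated with anti-CD40/IL-4. The fibroblasts were SV40-transformed tail cells of the genotype c-myc25xI;RosaI-SceI-GR with no activation. I-SceI is the nuclease that cuts the cassettes, and the fibroblast genotype names a Rosa I-SceI-GR allele, whereas the B-cell labels do not name how I-SceI was supplied. Both groups share a c-myc cassette. Cell type, genotype and I-SceI supply, and also sequencing run, change together between the groups and cannot be told apart. Nothing in the labels says whether libraries came from separate animals or cultures, so that p-values measure only the spread between these libraries, which may be technical. The labelled cell types could not be checked by expression, since these are DNA junctions.

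High-throughput genome-wide translocation sequencing reads outward from a bait break into whatever sequence it was joined to. Most such joins are local, because the ends of a break are trimmed and rejoined nearby, and joining to breaks elsewhere falls with distance along the chromosome. In B cells activated through CD40 and the IL-4 receptor, the enzyme AID deaminates the switch regions of the immunoglobulin heavy chain locus (IgH) on chromosome 12 to start class switching, mainly to IgG1 and IgE, and it acts at some other transcribed genes. Translocation of c-myc to an IgH switch region is the classic lesion of mouse plasmacytomas.

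B-cell libraries 14, 36 and 37 held 2918, 2850 and 878 junctions, and fibroblast libraries 1 to 4 held 980, 769, 620 and 562. B-cell libraries came from 3 sequencing runs and fibroblast libraries from 1, by the run names in the reads. Reads were shorter in B cells, with a median of 205 bases in library 14, 272 in 36 and 270 in 37 against 336 to 345 in fibroblasts. The median aligned prey was 49 bases in library 14, 105 in 36 and 92 in 37, against 118 to 127 in fibroblasts. Library 14 stood apart: 76.3% of its prey fragments off chromosome 15 ended in GG at the far end against 4.02% to 13.5% in the other 6 libraries, and 21.6% of its junctions repeated position, strand and far end against 2.31% to 4.69%. Without library 14 the B-cell minus fibroblast differences were -13.6 points for the partner share, 3.83 for the share at 100 kb to 1 Mb, -20.1 for the lower-side share, -16.5 and 24.8 for the strand measures without overlap, -2.70 for other chromosomes and 29.0 for IgH. Leaving out a library cannot make groups that were apart overlap, so that only the sizes of these differences carry information. The measures are explained where they are described.

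The sequences at the sites to which the results below return are printed here from the reference part of the deposited tables, in mm9 coordinates and 5′ to 3′. The first is the place where fibroblast junctions gathered away from the bait, on the + strand, with the most frequent junction base in capitals (chr15:61923223-61923303).
fibroblast partner site: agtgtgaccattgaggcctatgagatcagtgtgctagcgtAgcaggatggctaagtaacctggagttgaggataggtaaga
The next 3 are prey at IgH switch regions from single B-cell reads, written from the junction outward with each AGCT in capitals. AGCT is the palindromic core of the motif that AID prefers, and these 3 single reads do not measure its density in a region. They lie at chr12:114663341-114663400 on the - strand, chr12:114574579-114574638 on the + strand and chr12:114514053-114514112 on the - strand.
Smu: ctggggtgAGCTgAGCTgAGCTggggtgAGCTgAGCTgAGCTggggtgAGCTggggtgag
Sg1: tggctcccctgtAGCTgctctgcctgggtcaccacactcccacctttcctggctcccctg
Se: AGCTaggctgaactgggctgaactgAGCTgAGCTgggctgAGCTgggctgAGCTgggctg
The last 4 are prey at genes, again written from the junction outward. Eefsec and Lzic gave one and the same junction in several fibroblast libraries (chr6:88209573-88209632 and chr4:148870060-148870119, both + strand), and Cd83 and Pim1 took junctions in 2 B-cell libraries each (chr13:43881983-43882042, + strand, and chr17:29628119-29628158, - strand).
Eefsec: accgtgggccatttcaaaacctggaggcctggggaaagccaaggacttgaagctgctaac
Lzic: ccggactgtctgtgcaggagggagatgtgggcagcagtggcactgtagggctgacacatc
Cd83: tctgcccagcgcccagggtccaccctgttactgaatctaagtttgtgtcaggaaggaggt
Pim1: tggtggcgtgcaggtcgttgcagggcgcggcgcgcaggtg

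Junctions on chromosome 15 gathered at the bait and at one partner site inside Pvt1, the long non-coding RNA gene next to Myc. The bait peak, the most frequent junction position over both groups with libraries weighted equally, was at 61818880 in the Myc label. It was not sought in each group apart. The partner peak lay 95.9 kb above it at 61914760 in B cells and 104.4 kb above it at 61923263 in fibroblasts. The coordinates of both groups agreed below the B-cell partner peak and differed by 172 bp above it, where 3097 words of 24 bases shared by both groups were compared, so that the distances above it hold within each group. The partner share, junctions within 10 kb of the partner peak of the group as percent of a library, was 22.1%, 23.5% and 24.3% in B-cell libraries 14, 36 and 37. In fibroblast libraries 1 to 4 it was 39.1%, 34.1%, 39.0% and 37.7%. Every B-cell library lay below every fibroblast library, with means of 23.3% ± 1.08 (SD, n = 3) and 37.5% ± 2.36 (SD, n = 4) and a two-sided exact permutation p of 0.0571, adjusted p = 0.139. With 3 against 4 libraries 0.0571 is the smallest p possible, so that none of the 17 library-level measures compared here could pass 0.05. The breaks at both partner sites need not be of one kind. The genotype labels differ in their cassette part (c-myc25-2xI for B cells, c-myc25xI for fibroblasts), and the prey reference held an I-SceI site in 140, 180 and 54 lines of B-cell libraries 14, 36 and 37 and in 0 lines of every fibroblast library. The kind of partner break thus cannot be told apart from cell type in the partner share, width and strand. In 7 of the 17 measures, or 41.2%, the libraries did not overlap between the groups, and each of those has these same p-values. With 1 junction per position and strand the partner difference of -14.2 percentage points was -2.43, with overlap between the groups (exact permutation p = 0.286).

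The partner sites differed in width and in strand. In fibroblasts 62.6% ± 2.84 (SD, n = 4) of the junctions in the 10 kb window lay within 10 bp of the peak base capitalised above. In B cells 18.9% ± 0.705 (SD, n = 3) lay within 10 bp of their own peak. Within 100 bp the shares were 81.3% ± 1.08 (SD, n = 4) in fibroblasts, as against 34.8%, 64.2% and 64.8% in B-cell libraries 14, 36 and 37. Neither pair of groups overlapped. A + junction starts a prey fragment that runs towards higher coordinates, and a - junction one that runs towards the centromere. In fibroblasts both directions were about as frequent within 10 bp, with 52.6% ± 2.00 (SD, n = 4) on the + strand, whereas in B cells 88.8% ± 6.59 (SD, n = 3) were. In fibroblasts the strand followed the side of the peak over the 10 kb window, with 78.4% ± 1.46 (SD, n = 4) + junctions above the peak and 27.3% ± 1.89 (SD, n = 4) below it. B cells had 83.3% ± 2.74 (SD, n = 3) above and 62.7% ± 3.47 (SD, n = 3) below, with + junctions in the majority on both sides over the whole window. Below the peak this majority came from junctions near the peak base, with 85.1% ± 9.39 (SD, n = 3) within 10 bp. In the 1 kb bin that starts 94 kb from the bait, - junctions outnumbered + ones, with 28 against 17, 12 against 7 and 6 against 5 in libraries 14, 36 and 37. Within 1 kb of the fibroblast peak B cells had 18 junctions, and within 1 kb of the B-cell peak fibroblasts had 0. These 2 counts use coordinates as deposited, without the difference of 172 bp between the groups above the B-cell peak. These widths and strands were not among the 17 measures tested. They count every line, many of which repeat a position and strand, and were not recomputed with 1 junction per position and strand.

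**Figure D1:**
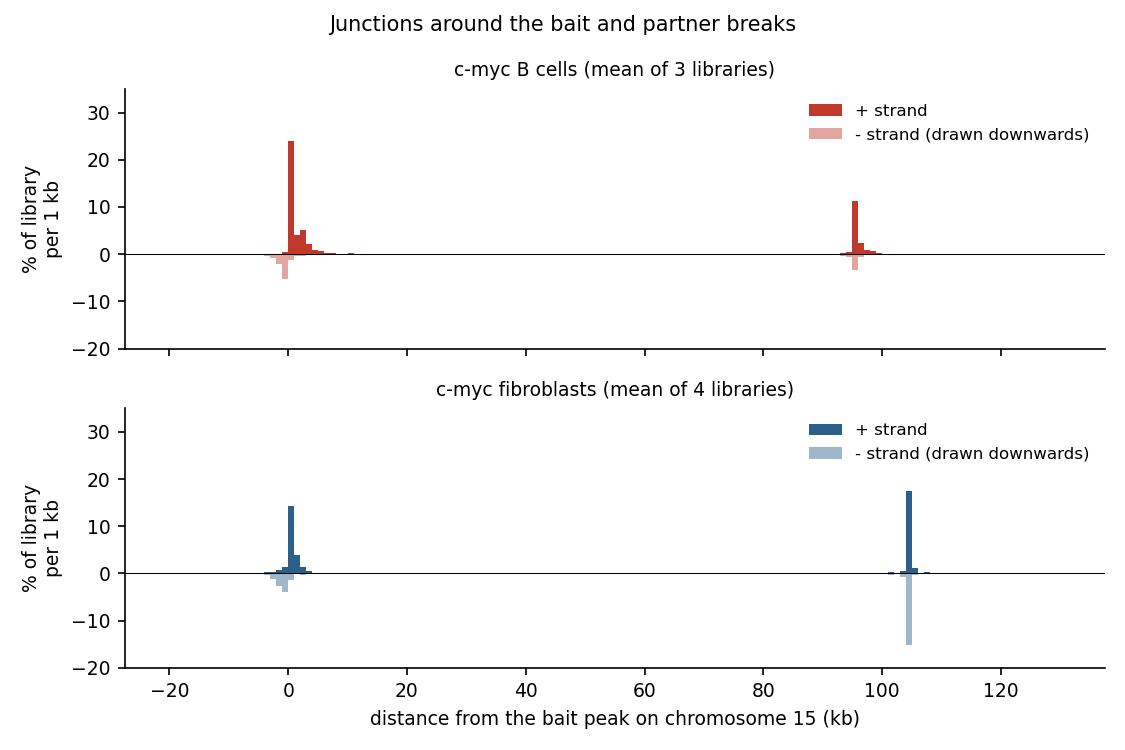
Junctions per 1 kb as percent of a library, averaged over the libraries of a group, against distance from the bait peak in kb, with + strand junctions drawn upwards and - strand junctions downwards. The bait peak was set once over both groups. The partner peak lies at 95.9 kb and mostly upwards in B cells, and at 104.4 kb in both directions in fibroblasts.

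Over the first 10 kb from the bait the libraries of both groups overlapped in how many junctions they held. For this the stretch of chromosome 15 from 10 kb before the B-cell partner peak to 10 kb past the fibroblast one was left out. Of the chromosome 15 junctions that remained, 51.7% ± 4.07 (SD, n = 3) in B cells, as against 52.7% ± 2.46 (SD, n = 4) in fibroblasts lay less than 1 kb from the bait peak (exact permutation p = 0.8). A further 31.6% ± 2.49 (SD, n = 3) and 32.2% ± 2.88 (SD, n = 4) lay at 1 to 10 kb (exact permutation p = 0.8). The decay exponent, the slope of log10 junction density on log10 distance from 1 kb to 10 Mb, was -1.38, -1.31 and -1.35 in B-cell libraries 14, 36 and 37. In fibroblast libraries 1 to 4 it was -1.30, -1.35, -1.30 and -1.33. Means were -1.35 ± 0.04 (SD, n = 3) and -1.32 ± 0.02 (SD, n = 4), with overlapping libraries (exact permutation p = 0.286, adjusted p = 0.374). As percent of all junctions of a library, by contrast, the first kilobase held 30.9% in B cells and 20.9% in fibroblasts without overlap, and 1 to 10 kb held 18.8% and 12.7%, also without overlap.

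Inside the first 10 kb the junctions were spread differently. Less than 100 bp from the bait peak lay 12.4% ± 1.10 (SD, n = 4) of these chromosome 15 junctions in fibroblasts and 4.21% ± 2.86 (SD, n = 3) in the B-cell libraries. The B-cell mean rests on library 37, at 7.51%, whereas libraries 14 and 36 were at 2.32% and 2.82%. On the higher-coordinate side at 3 to 10 kb lay 7.60% ± 1.52 (SD, n = 3) in B cells, as against 2.62% ± 0.221 (SD, n = 4) in fibroblasts. On the lower side at 1 to 3 kb it was fibroblasts that had more, with 12.6% ± 1.74 (SD, n = 4) against 5.47% ± 1.46 (SD, n = 3). Distances run from the bait peak set over both groups together, so that the values within 100 bp depend on that base. These finer bins were not tested.

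Farther out, B cells had a larger share of junctions between 100 kb and 1 Mb, and at longer range the libraries overlapped. Between 100 kb and 1 Mb lay 4.53%, 6.90% and 5.88% of the chromosome 15 junctions in B-cell libraries 14, 36 and 37. In fibroblast libraries 1 to 4 these shares were 1.88%, 2.14%, 2.03% and 4.17%. The libraries did not overlap, although fibroblast library 4 came close to B-cell library 14 (means 5.77% ± 1.19, SD, n = 3, and 2.56% ± 1.08, SD, n = 4). The fibroblast shares rest on 5 to 9 junctions each. At 10 to 100 kb the shares were 5.20% ± 0.459 (SD, n = 3) and 3.85% ± 1.43 (SD, n = 4), at 1 to 10 Mb 2.26% ± 0.606 (SD, n = 3) and 3.36% ± 0.974 (SD, n = 4), and beyond 10 Mb 3.47% ± 1.11 (SD, n = 3) and 5.36% ± 1.49 (SD, n = 4). Libraries overlapped in these 3 bins (exact permutation p = 0.171 in each). At 10 to 100 kb this depended on the counting. As percent of all junctions of a library that bin held 3.09% in B cells and 1.54% in fibroblasts without overlap. With 1 junction per position and strand it held 6.28% and 4.04%, and with 5 kb around the partner peaks 5.77% and 4.02%, also without overlap (exact permutation p = 0.0571 in each). In 4 of 7 such alternatives the libraries overlapped. As percent of all junctions of a library, 1 to 10 Mb held 1.33% in each group and the bin beyond 10 Mb held 2.02% for B cells against 2.13% for fibroblasts (exact permutation p = 0.914 in both), so that the long-range values depend on the denominator. Among junctions more than 10 kb away, the median distance was 0.191, 0.349 and 0.290 Mb in B-cell libraries 14, 36 and 37 and 3.69, 2.09, 1.05 and 2.78 Mb in fibroblast libraries 1 to 4. Within 1 Mb lay 61.6% to 70.7% of them in B cells and 35.6% to 48.6% in fibroblasts.

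The excess in B cells lay above the bait, on the Pvt1 side. Of the junctions more than 10 kb away, 29.7%, 39.4% and 40.7% lay at lower coordinates, towards the centromere, in B-cell libraries 14, 36 and 37, against 64.4%, 66.7%, 42.9% and 66.7% in fibroblast libraries 1 to 4. The groups did not overlap, with means of 36.6% ± 6.01 (SD, n = 3) and 60.1% ± 11.6 (SD, n = 4), but fibroblast library 3 was close to the B-cell range. With aligned prey of at least 50 bases the difference of -23.5 points was -19.9 and the libraries overlapped (exact permutation p = 0.114). Between 100 and 300 kb above the bait, past the partner stretch, B cells had 123 junctions and fibroblasts 7, or 3.02% ± 0.267 (SD, n = 3) and 0.631% ± 0.404 (SD, n = 4). The same distance below the bait held 23 and 6 junctions, or 0.544% ± 0.235 (SD, n = 3) and 0.583% ± 0.584 (SD, n = 4). The upper bin begins at the edge of the stretch left out around the partner peaks, and the part of junctions from the partner break in it was not tested.

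**Figure D2:**
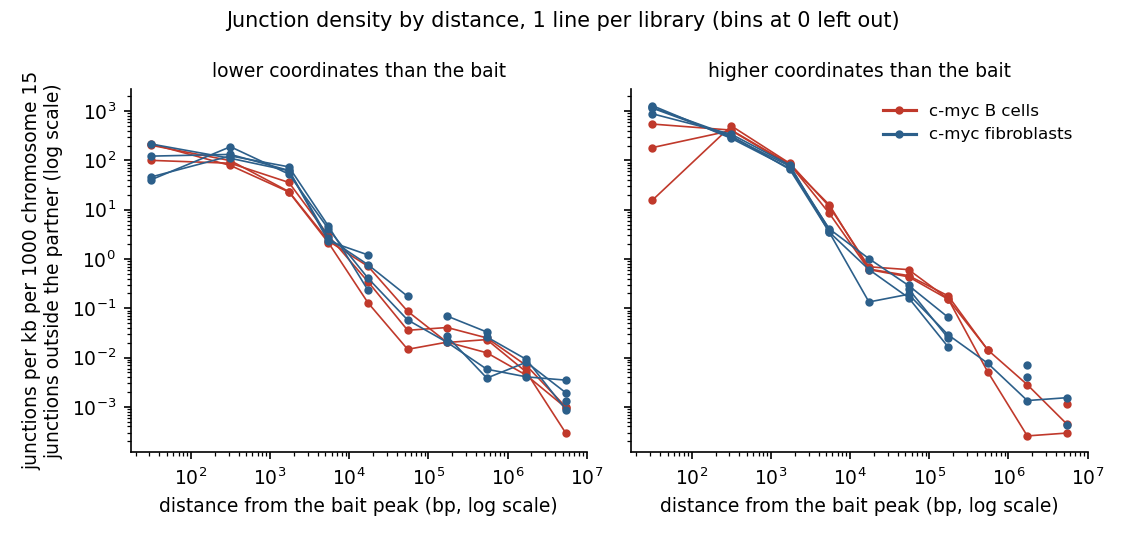
Junctions per kb of chromosome per 1000 chromosome 15 junctions outside the partner stretch, on a log scale, against distance from the bait peak in bp, also on a log scale, at lower (left) and higher (right) coordinates, with 1 line per library and bins at 0 left out. On the right the B-cell lines lie above the fibroblast lines at 3 to 10 kb and at 100 to 300 kb, and below them within 100 bp.

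Near the bait the strand depended on the side in both groups. Up to 10 kb above the bait the + share was 94.5% ± 1.53 (SD, n = 3) for B cells against 91.8% ± 2.59 (SD, n = 4) for fibroblasts, with overlap (exact permutation p = 0.114). Up to 10 kb below it the + shares were 11.4%, 12.5% and 7.06% in B-cell libraries 14, 36 and 37. In fibroblast libraries 1 to 4 they were 27.8%, 28.9%, 25% and 23.4%. The groups did not overlap, at 10.3% ± 2.86 (SD, n = 3) and 26.3% ± 2.51 (SD, n = 4).

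Beyond 10 kb above the bait the + share was higher in every B-cell library than in any fibroblast library. The + shares were 73.8%, 72.7% and 68.6% in B-cell libraries 14, 36 and 37, from 187, 183 and 51 junctions. They were 42.9%, 55.6%, 35% and 50% in fibroblast libraries 1 to 4, from 21, 18, 20 and 10 junctions. No libraries overlapped, with means of 71.7% ± 2.72 (SD, n = 3) and 45.9% ± 8.91 (SD, n = 4). With libraries pooled, the + share in B cells was 79.7% of 172 junctions at 10 to 100 kb (95% Wilson interval 73.0% to 85.0%, counting error only) and 84.1% of 151 at 100 kb to 1 Mb (77.4% to 89.1%). At 1 to 10 Mb it was 26.1% of 23 junctions (12.5% to 46.5%), on the other side of even. In fibroblasts the same bins gave 45.8% of 24 junctions, 55.6% of 9 and 45.5% of 11, with intervals that include an even split.

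Below the bait, the + share changed with distance as well. In B cells it was 9.57% of 376 junctions within 1 kb, 13.5% of 296 at 1 to 10 kb, 56.3% of 32 at 10 to 100 kb, 69.7% of 76 at 100 kb to 1 Mb and 71.0% of 69 at 1 to 10 Mb. In fibroblasts the same bins gave 27.6% of 156, 25.7% of 171, 45.5% of 22, 78.9% of 19 and 58.6% of 29. Below the bait - junctions were thus the majority up to 10 kb in both groups and + junctions from 100 kb to 10 Mb. Over all junctions beyond 10 kb on this side, the + shares of 63.8% ± 5.46 (SD, n = 3) and 56.4% ± 13.7 (SD, n = 4) overlapped (exact permutation p = 0.514). More than 10 Mb away on either side the strands were near even, with a + share of 48.1% for 131 B-cell junctions and of 42.2% for 64 fibroblast junctions.

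**Figure D3:**
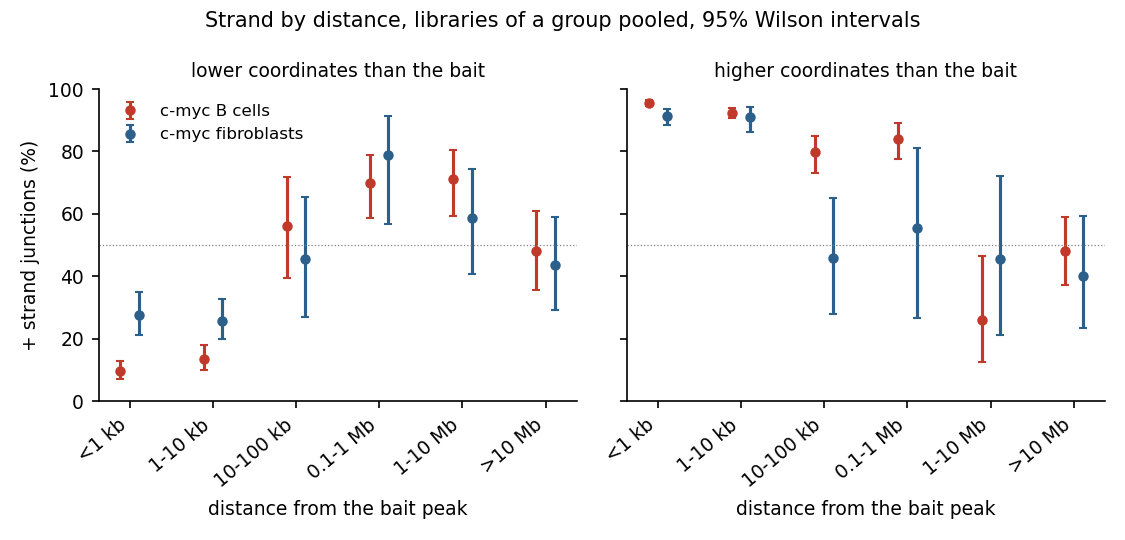
Percent of + strand junctions by distance from the bait peak, at lower (left) and higher (right) coordinates, with the libraries of a group pooled and 95% Wilson intervals that cover counting error only. On the right B cells stay above 79% to 1 Mb and are at 26.1% at 1 to 10 Mb; on the left both groups pass from below 30% within 10 kb to 69.7% and 78.9% at 0.1 to 1 Mb.

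Among chromosome 15 labels with junctions in at least 2 libraries of a group, Pvt1 held the most outside the bait and partner windows in both groups. More than 10 kb from the bait and outside the partner stretch, Pvt1 held 99, 71 and 25 distinct junctions in B-cell libraries 14, 36 and 37, against 6, 3, 6 and 4 in fibroblast libraries 1 to 4, counting each position and strand once per library. Counting every line, + junctions were 88 of 102, 65 of 73 and 18 of 25 in the B-cell libraries and 4 of 6, 2 of 3, 1 of 6 and 1 of 4 in the fibroblast ones. All lines of that region, with any label or none, numbered 266, 302 and 86 in the B-cell libraries. In the fibroblast ones they numbered 59, 54, 35 and 30. The Pvt1 junctions were on the + strand in the majority in every B-cell library and in fibroblast libraries 1 and 2. D030024E09Rik, at -286 to -219 kb from the bait on its lower side, held 8 junctions in B cells and 3 in fibroblasts, and all 11 were +.

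Farther along chromosome 15, other labels met the naming rule of junctions in at least 2 libraries of one group. Ly6e, which encodes a small lipid-anchored surface protein and lies 12968 to 12970 kb above the bait, held 6 junctions within 2.55 kb in B cells, namely 1, 4 and 1 by library, and 0 in fibroblasts. Trappc9, a subunit of a vesicle tethering complex, held 5 in B cells and 1 in fibroblasts, all 6 on the - strand. Mtdh held 3 and 1, Zhx2, a transcriptional repressor, 3 and 1, and Csmd3, a very long gene, 3 and 0. Adcy8, an adenylyl cyclase, Cdh18, a cadherin, Kcnq3, a potassium channel subunit, and Tmem117 held 2 each in B cells alone, and Anxa13, an annexin, 2 in fibroblasts alone. B cells had 6646 junctions in all and fibroblasts 2931, and differences in single labels were not tested.

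Translocations, junctions off chromosome 15, took a smaller share of B-cell than of fibroblast libraries. They made up 11%, 20.2% and 19.5% of B-cell libraries 14, 36 and 37 and 22.9%, 23.1%, 20.8% and 23.3% of fibroblast libraries 1 to 4. The libraries did not overlap, at 16.9% ± 5.11 (SD, n = 3) and 22.5% ± 1.16 (SD, n = 4), but the difference of -5.65 points was -2.70 without B-cell library 14. It was -10.1 with 1 junction per position and strand, and the libraries overlapped at -5.08 with aligned prey of at least 50 bases and at -4.58 with prey that holds an I-SceI site left out (exact permutation p = 0.114 in both). Off chromosome 15, 0 lines of any library repeated a position and strand, whereas 13.7% to 29.4% of all lines of a library did, all of them on chromosome 15. The strand was even in both groups, with 50.7% ± 2.31 (SD, n = 3) and 51.4% ± 5.27 (SD, n = 4) + junctions (exact permutation p = 0.857). Gene labels covered 55.2% ± 6.10 (SD, n = 3) and 48.9% ± 7.25 (SD, n = 4) of translocations without IgH, with overlapping libraries (exact permutation p = 0.286).

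Translocations reached every chromosome in B cells and every one but Y in fibroblasts. With IgH left out, limma on log2(percent + 0.5) called 0 of the 19 chromosomes tested at adjusted p under 0.05, so that the background share called was 0%, and 1 had an unadjusted p under 0.05. That 1 was X, at 1.45%, 2.29% and 2.65% of translocations in B-cell libraries 14, 36 and 37 and 5.36%, 5.62%, 5.43% and 3.05% in fibroblast libraries 1 to 4. The groups did not overlap on X, with a log2 difference of -1.02 (SE 0.44, limma adjusted p = 0.433). Chromosome 2 was at 10.4% ± 0.967 (SD, n = 3) in B cells, as against 6.75% ± 3.21 (SD, n = 4) in fibroblasts, a log2 difference of 0.71 (SE 0.36, limma adjusted p = 0.514). Fibroblast library 4 overlapped the B-cell range there. With IgH kept, chromosomes 12 and X were called. IgH junctions then enlarge the B-cell denominators alone, which lowers the B-cell share of every other chromosome, X included.

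**Figure D4:**
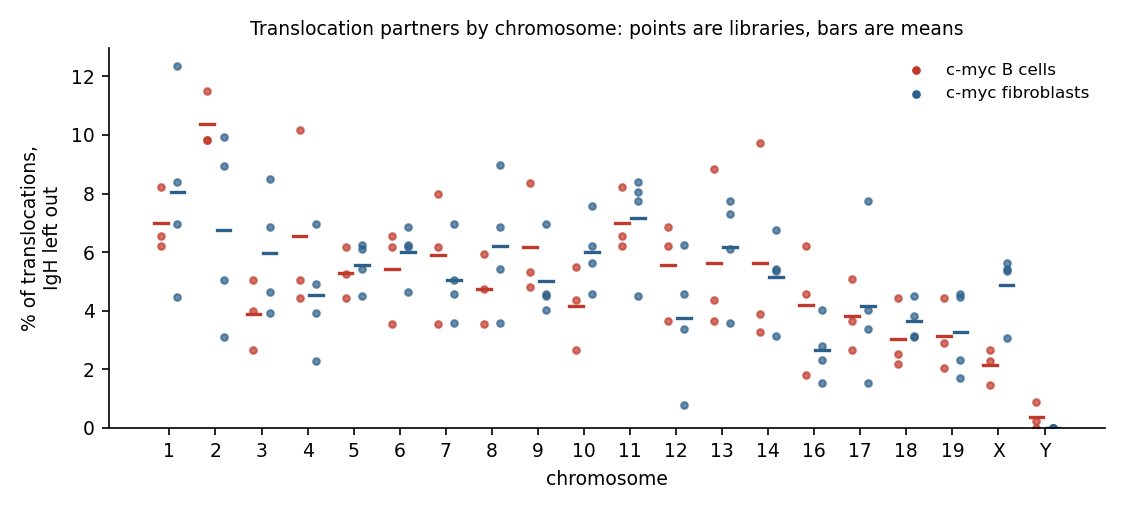
Percent of translocations on each chromosome, IgH-labelled junctions left out, with points for single libraries (3 of B cells, 4 of fibroblasts) and bars for group means. The groups overlap on most chromosomes; on X the B-cell libraries lie at 1.45% to 2.65% and the fibroblast libraries at 3.05% to 5.62%.

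In B cells the c-myc break joined IgH switch regions more often than any other labelled locus off chromosome 15, and in fibroblasts no junction lay there. IgH labels held 46 of 321, 138 of 575 and 58 of 171 translocations in B-cell libraries 14, 36 and 37, or 14.3%, 24% and 33.9%. They held 0 of 662 in fibroblasts, which allows a share of up to 0.453%, and 0 of 224, 178, 129 and 131 by library. The mean in B cells was 24.1% ± 9.79 (SD, n = 3), and without any one library the difference was 19.2 to 29.0 points. A further 12 B-cell junctions without a label lay within 50 kb of the labelled span, and 0 in fibroblasts.

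S mu, the donor switch region of every class switch, and S gamma 1 and S epsilon, acceptors for IgG1 and IgE, held nearly all of these junctions. S mu took 7.17%, 10.1% and 12.9% of translocations in libraries 14, 36 and 37, over 2.77 kb. S gamma 1 took 2.80%, 11.7% and 17.5%, over 4.996 kb. S epsilon took 4.36%, 1.91% and 2.92%, over 1.85 kb. Library 14 had fewer junctions at S gamma 1 than at S mu, at 9 and 23, whereas libraries 36 and 37 had 67 and 58, and 30 and 22. S alpha held 0, 2 and 1 junctions. The labels Sg3, Sg2b and Sg2a had 0 junctions in all 3 libraries, which allows up to 0.522% of translocations in library 36 for each. The 10th to 90th percentile of positions spanned 1.44 kb at S mu, 2.95 kb at S gamma 1 and 1.43 kb at S epsilon.

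Both strands were found at each of these regions. The + share was 46.6% of 103 junctions at S mu (95% Wilson interval 37.3% to 56.2%, counting error only), 41.5% of 106 at S gamma 1 (32.6% to 51.0%) and 56.7% of 30 at S epsilon (39.2% to 72.6%). Each junction at S mu, S gamma 1 and S epsilon had a position and strand of its own within its library, as did every other junction off chromosome 15. AGCT, a palindrome and so the same on both strands, was found in the first 30 prey bases in 67.8% of 59 S mu junctions with that many bases to read, in 40% of 80 at S gamma 1 and in 74.1% of 27 at S epsilon. In other translocations it was found in 13.5% of 768 in B cells and 10.3% of 601 in fibroblasts, and on chromosome 15 beyond 10 kb in 13.1% of 611 and 11.98% of 167. The motif is a description of these regions, whose repeats hold it, as in the printed S mu and S epsilon prey. The GC content of the same bases was 53.3% at S mu, 59.8% at S gamma 1 and 45.6% in other B-cell translocations. At the light chain kappa locus on chromosome 6, labels Jk2 and Jk3 each held 1 junction, both + and both in library 36.

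**Figure D5:**
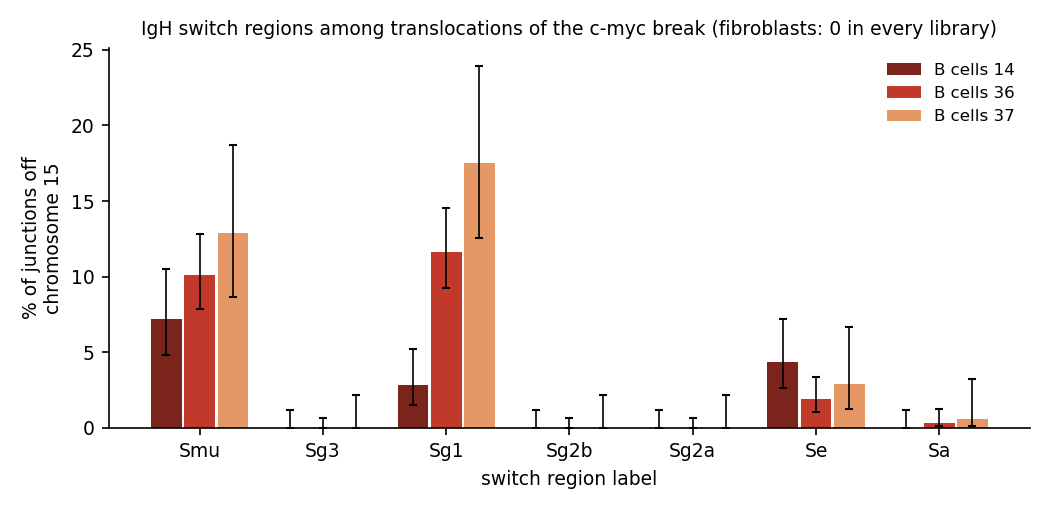
Percent of translocations in each labelled switch region for B-cell libraries 14, 36 and 37, with 95% Wilson intervals that cover counting error only; fibroblasts had 0 in every library. S mu and S gamma 1 lead in libraries 36 and 37, while library 14 has 2.80% at S gamma 1 against 11.7% and 17.5%.

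Outside IgH few genes were met more than once. Off chromosome 15 there were 396 distinct gene labels in B cells and 297 in fibroblasts, with 23 in both. By the naming rule 28 labels had junctions in at least 2 libraries of a group, 14 of the 396 in B cells and 14 of the 297 in fibroblasts. With so few labels meeting the rule, the 0 that met it in both is not read as a difference between the groups. Mmp24, a membrane-bound metalloproteinase, had 6 junctions in B cells (1, 4 and 1 by library) at 6 positions over 7.25 kb of chromosome 2, 3 on each strand. Plcd3, a phospholipase C, had 1 in each B-cell library within 0.096 kb of chromosome 11. Cd83, a surface protein of activated B cells whose prey is printed above, had 4 junctions over 16.2 kb of chromosome 13, 2 each in libraries 14 and 36. Pim1, a kinase gene, had 3 over 3.21 kb of chromosome 17, in libraries 14 and 37, and Aff3, a lymphoid nuclear factor, and Epb4.1, a membrane skeleton protein, had 3 each. The other labels met by B cells, with 2 junctions each, were Apbb1, Atxn7l1, Kirrel3, Rabgap1l, Sh3bp5, Zwilch (a kinetochore protein), Fyn (a Src family kinase) and Pik3cd (the leukocyte phosphoinositide 3-kinase subunit).

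Some recurrence in both groups was of single positions found in several libraries. Eefsec, the elongation factor for selenocysteine, had 5 junctions in all 4 fibroblast libraries (1, 2, 1 and 1), 4 of them at the identical + position whose sequence is printed above. Lzic had 3, in libraries 1, 3 and 4, all at its printed position. Efr3b, Maml3, a Notch coactivator, Ric8b and Wfdc1 each had 2, at one position in libraries 1 and 2. The Eefsec junctions ended at 4 different far ends and began at read bases 139 to 141, and the Lzic ones had 3 far ends and began at read bases 117 to 119. The Maml3 junctions had 1 far end and both began at read base 123, and those of Efr3b had 1 far end but began at read bases 275 and 300. Off chromosome 15, 6 positions were shared between fibroblast libraries, 7 between B-cell libraries and 0 between the groups. Of the 7 in B cells, 5 lay in S mu or S gamma 1 and the others in Plcd3 and Epb4.1, with 1 far end each and different starts on the read. Whether libraries of a group share cells or molecules was not tested, and they may not be independent. With all positions found in more than 1 library left out, an alternative chosen after seeing the data, the difference in other-chromosome share was -5.49 points and that in IgH share 23.4. Bai3 (now Adgrb3), an adhesion receptor, and Odz2, a teneurin, had 2 junctions in fibroblasts and 1 in B cells each. Eya1, Kcnb2, Nkain2, Nrg3, Smg5 and Unc5a had 2 each in fibroblasts alone, at different positions.

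Among the listed gene groups, AID off-targets, genes known to be hit by AID in activated B cells, held 19 of 1721 B-cell junctions (1.10%) off the bait and partner, in 6 of 24 genes. They were 6 in Ly6e, 4 in Cd83, 3 in Pim1, 3 in Il4ra (the IL-4 receptor chain, all in library 36), 2 in Irf4 (a transcription factor of activated B and plasma cells, both in library 14) and 1 in Gas5, a non-coding RNA gene. Fibroblasts had 0 of 840 in this list, which allows a share of up to 0.357%. The lists were chosen with earlier results of these data known, so that these counts only describe the junctions. Myc neighbours on chromosome 15, 15 genes, held 205 B-cell and 20 fibroblast junctions, nearly all in Pvt1. The 20 fibroblast genes held 0 junctions in B cells and 1 in fibroblasts, in Col5a1, a collagen gene. The 20 long fragile-site genes held 5 (0.291%) and 4 (0.476%), and the 12 double-strand break repair and recombination genes 0 in both groups. Reads with 2 prey lines were few, 51 in B cells and 11 in fibroblasts, and 3 of the B-cell ones held an IgH line.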

How the data were processed

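Junctions were sequenced from sonicated genomic DNA by adapter PCR on a MiSeq, per the labels' protocols. The deposited tables give 1 line per junction with position, strand, alignment score and gene label, per the file headers. The score was deposited by the authors as given by their aligner, which is not given in the sources used here, and was not used for filtering. Positions are mm9, per the submitters' processing notes, counted from 1. On chromosome 15 above the B-cell partner peak the groups differed by 172 bp, so that both cannot be in the same mm9 coordinates there. Positions are given as deposited. Gene names are those in the tables, of which 764 of 779 matched RefSeq names. Every line was counted. The 17 library-level measures were each tested by a two-sided exact permutation of libraries, with Benjamini-Hochberg adjustment. Chromosome shares were compared with limma 3.58.1 (trend) on log2(percent + 0.5), for chromosomes with at least 20 junctions. Both steps were tested on simulated data. Wilson intervals (95%) and limits for a count of 0 (3 counts) cover counting error only. Labels were named if found in at least 2 libraries of a group, each position and strand once. One label that met this rule is not reported here. The members, lists and tests were chosen with earlier results of these data known. Alternatives were other windows, counting rules and left-out libraries. The depth was 562 to 2918 junctions per library.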

Additional observations from a re-analysis of the deposited data

Results flagged for a closer look

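Of 16 measures looked at in the 4 fibroblast libraries, 2 had a library far from the others. Chance alone marks about 1 in 20 such groups. The share of chromosome 15 junctions between 100 kb and 1 Mb was 4.17% in fibroblast library 4, against 1.88% to 2.14% in the others, from 9 junctions. The share at lower coordinates beyond 10 kb was 42.9% in fibroblast library 3, from 35 junctions, against 64.4% to 66.7% in the others.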

How the results depend on the processing

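Over 17 measures, 210 of 223 alternative values kept the direction of B cells minus fibroblasts and 13 were reversed, with 12 measures never reversed. In the 7 measures without overlap, leaving out a library cannot make the groups overlap, so that only the size of a difference can change. In percentage points, and with aligned prey of at least 50 bases, the share under 1 kb became 0.187, the + share on other chromosomes 1.27 and the decay exponent (in its own unit) 0.0025. As percent of all junctions, the share under 1 kb became 9.9995, that of 1 to 10 kb 6.07 and that of 1 to 10 Mb 0.0028. Without single libraries the share under 1 kb ranged from -2.39 to 1.38, that of 1 to 10 kb from -1.83 to 0.698, and the + share on other chromosomes from -2.27 to 1.27. The cause was not tested. Keeping IgH raised the chromosomes called by limma from 0 to 2, by construction for chromosome 12. The call on X also depends on it, because IgH junctions enlarge the B-cell denominators alone. The log2 difference on X went from -1.02 to -1.34. Other alternatives gave -18.8 to -2.43 for the partner share and -10.1 to -4.58 for other chromosomes. No paired analysis was possible because the groups compared share no replicate numbers. Fibroblast bins beyond 10 kb hold few junctions per library, and differences there are limited by depth.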
